A study of Bos taurus with 14 samples.

Results

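The modern pregnancy-associated glycoproteins of cattle were measured in whole conceptuses recovered on Day 15 of gestation. Members were the probe sets whose single gene symbol in the platform annotation was PAG1, PAG4, PAG5, PAG6, PAG7, PAG15, PAG16, PAG17, PAG19 or PAG21. Of these 10 symbols 9 were found, on 10 of the 24016 probe sets of the array that were not controls, which name 9155 genes in all. PAG16 had 2 probe sets, and 0 probe sets carried the symbol PAG1. In the RefSeq gene table that symbol belongs to a gene on chromosome 14, outside the glycoprotein cluster. The table gives PAG1 as a synonym of LOC281964, which lies inside the cluster on chromosome 29. LOC281964 had 1 probe set, which is described beside the members but is not counted with them.

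Pregnancy-associated glycoproteins (PAGs) are secreted relatives of pepsin made by the trophoblast of ruminants, and many of them are thought to lack protease activity. An older branch of the family, the ancient PAGs, is made throughout the trophoblast. The modern branch is made mainly by binucleate cells, which arise from mononucleate trophoblast cells, migrate to the uterine epithelium, fuse with it and release their granules on the maternal side. In cattle these cells become frequent around attachment of the trophoblast, which follows the elongation stage sampled here. PAG1, the member first purified from placenta, is an antigen used to detect pregnancy in maternal blood. Separate functions of PAG4, PAG5, PAG6, PAG7, PAG15, PAG16, PAG17, PAG19 and PAG21 are not assigned here, because the members are defined by sequence and by the cells that make them.

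All 14 conceptuses were Holstein, from superovulated cows inseminated with semen of 1 bull. Embryos were flushed on Day 6.5, graded by morphology and moved to Holstein heifers in lots of 2 to 6 of like grade. Which of the conceptuses had a dam or recipient in common is not stated. There were 5 long conceptuses from Grade 1 embryos (1 male, 4 female), 5 short ones from Grade 1 embryos (2 male, 3 female), 1 Grade 1 male without a recorded length and 3 from Grade 3 embryos (2 male, 1 female). One Grade 1 conceptus, counted here as short replicate 1, is called long in another of its labels. The design text describes the grades and the lengths as separate experiments and counts 4 Grade 1 conceptuses in the former without naming them, so all 11 were used. The source was the whole conceptus, so fewer cells of a type and less RNA per cell cannot be told apart. The main tests treated the conceptuses as independent, although some may have shared a dam or a recipient. Their p-values reflect only how these samples scattered, part of which may be technical.

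The modern PAGs lay near the floor of the array in every group. The median of the members' mean values was 3.15 on the log2 scale of RMA, the method that turned probe brightness into these values, against a median of 5.66 over all 24016 probe sets. Their single values ran from 2.35 to 5.58, and the lowest value of any probe set on any array was 2.23. All 10 probe sets had a mean under the median of the array, 8 lay at or below its 25th percentile (3.90) and 5 at or below its 10th (3.16). The means of PAG15 and of both PAG16 probe sets were 2.66, 2.90 and 2.65. PAG21, PAG19, PAG7 and PAG4 averaged 3.11, 3.12, 3.18 and 3.32. PAG17 followed at 3.75, and the LOC281964 probe set averaged 2.70. PAG6 and PAG5 were the brightest members at 5.06 and 5.38, near the 42.4th and 46.6th percentile of the array.

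**Figure D1:**
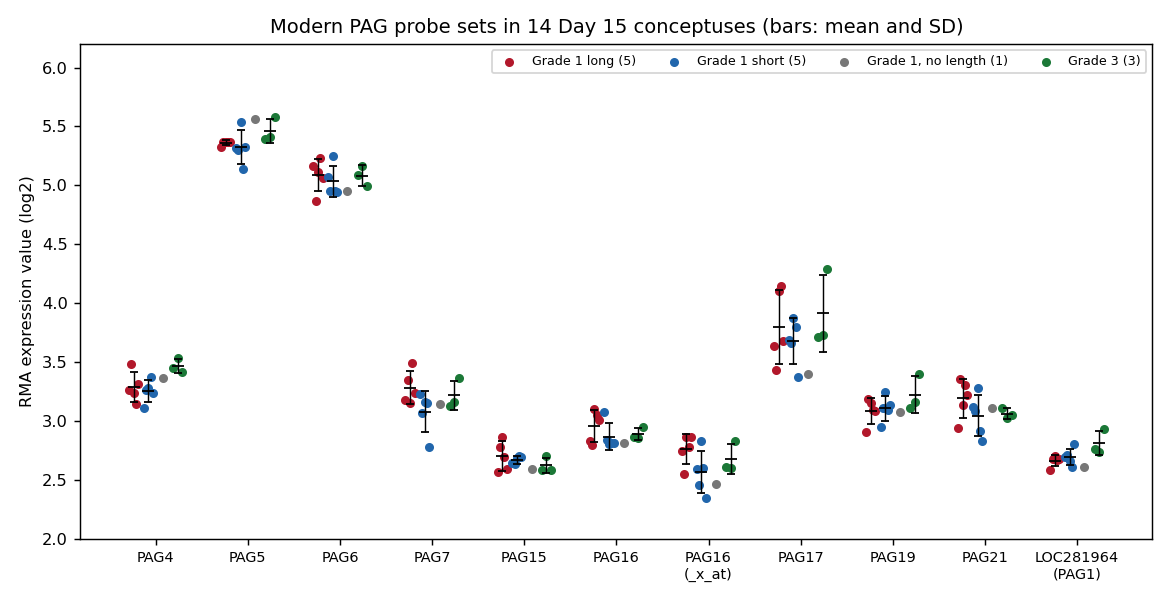
RMA values (log2) of the 10 member probe sets and of LOC281964 in 14 conceptuses. Each point is 1 conceptus coloured by group, and bars give the mean and SD of the groups of 5, 5 and 3. Long and short conceptuses overlap at every probe set, no value of PAG5 or PAG6 is below 4.87 and none of the remaining probe sets is above 4.29.

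Being near the floor was judged against genes of differentiated adult tissues, such as rhodopsin, caseins, skeletal myosins and pituitary hormones. Of 90 listed genes 76 were measured on 129 probe sets, whose means had a median of 4.13, a 75th percentile of 4.88 and a 90th percentile of 6.50. A probe set at or below that 90th percentile was called near the floor. By this rule all 10 member probe sets were near it, as was LOC281964, but so were 14081 of all 24016 probe sets (58.6%), so the rule alone sets the members little apart. With the 75th percentile the number was 8 of 10, PAG5 and PAG6 being above, compared with 40.0% of all probe sets. The list is not free of signal, since 13 of its probe sets exceeded 6.50. The brightest of those were GH1 at 10.69 and PRL at 9.99 and 9.19, pituitary hormones that have relatives in the placenta. Whether their probe sets took signal from such relatives was not tested.

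A level of 5 on this array did not by itself show that the target RNA was present. Probe sets of Y-linked genes were examined in the female conceptuses for this purpose, a choice made after the values were seen. The 12 probe sets covered 3 genes, and 10 of them belonged to TSPY, a gene of the male germ line. In the 8 females their means ran from 2.55 to 7.37 with a median of 4.17, and 4 of the 12 were above 5. The mean of PAG5 in females and males together was thus below the highest Y-linked mean of the females, and so was that of PAG6. One Y-linked probe set, of LOC100335202, separated the sexes at 5.15 in males and 4.06 in females (limma adjusted p = 0.000502). Whether the TSPY probes bind other transcripts was not tested.

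**Figure D2:**
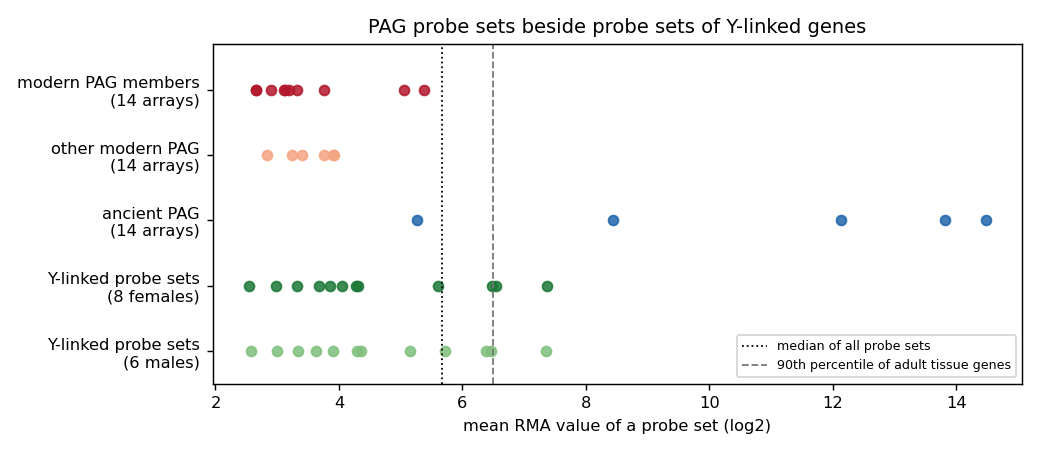
Mean RMA value (log2) of each probe set of the modern PAG members, the other modern PAGs, the ancient PAGs and the Y-linked genes, with the last given for 8 females and 6 males. Vertical lines mark the median of all probe sets (5.66) and the 90th percentile of the adult tissue genes (6.50). All modern probe sets lie left of both lines, while 4 of 5 ancient probe sets lie right of both.

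The floor also ran along the gene cluster. In the RefSeq assembly the measured PAG genes stand on chromosome 29 in a stretch of 62 annotated genes, of which 28 are pseudogenes and 21 had a probe set. The other 41 genes of the stretch had no probe set under their own gene number and were not analysed here. All 9 member genes lie in this stretch between PAG12 on one side and PAG11 on the other, both ancient PAGs. The ancient genes PAG10, PAG2 and PAG12 stand first, with mean values of 5.27, 13.81 and 8.44, and PAG11 and PAG8 stand last at 14.48 and 12.13. Between them no gene with a probe set averaged above 5.38. PAG6, at 5.06, is the last measured gene before PAG11, at 14.48, with a pseudogene annotated between them. PAG5, at 5.38, is the first measured gene after PAG12.

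**Figure D3:**
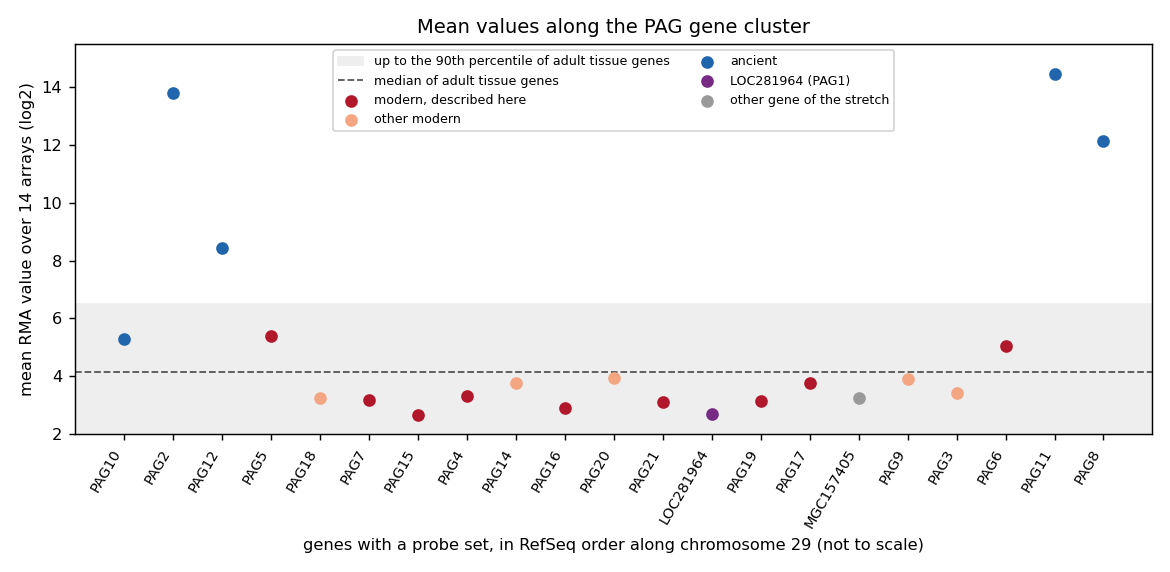
Mean RMA value (log2, 14 arrays) of each gene with a probe set, by its brightest probe set, in RefSeq order along chromosome 29 with even spacing. The grey band reaches to the 90th percentile of the adult tissue genes (6.50) and the dashed line is their median (4.13). Values above the band occur at the 2 ends of the stretch, in the ancient genes PAG2, PAG12, PAG11 and PAG8.

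Levels of different probe sets are not amounts of RNA, because probes differ in how brightly they bind. The placement near the floor is therefore a statement on each probe set and not a ranking of PAG transcripts. Copies of the family are similar in sequence, so a PAG probe set can take signal from relatives. A suffix of _x_at marks probe sets with probes that may match other sequences, and 1 of the PAG16 probe sets carries it. None of the member probe sets came near the values of PAG2, PAG8 or PAG11 on any array.

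The comparison of lengths asked whether the modern PAGs differed between long and short conceptuses of the same embryo grade. No member passed the test: 0 of 10 probe sets had an adjusted p under 0.05 in limma, compared with 1577 of all 24016 (6.57%). An unadjusted p under 0.05 in limma was found in 0 of 10 members, compared with 5274 of all probe sets (22%). A set of 10 is too small to set 0 calls apart from a share of 6.57%. The members' log2 differences, long minus short, ran from -0.02 to 0.20 with a median of 0.07, against a median of -0.02 over all probe sets. Of the 10 differences 9 were above 0, compared with 44.3% over all probe sets. Long and short values were fully separate in 0 of 10 members and in 8.42% of all probe sets.

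PAG7 showed the highest difference. Its values were 3.17, 3.35, 3.15, 3.49 and 3.24 in the long conceptuses and 3.23, 3.07, 3.16, 3.15 and 2.78 in the short ones. The groups overlapped, and the lowest value was that of short replicate 5. The log2 difference was 0.20 ± 0.10 (SE) with limma adjusted p = 0.252, and its 95% interval ran from -0.01 to 0.41.

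The _x_at probe set of PAG16 came next. The long conceptuses measured 2.74, 2.55, 2.86, 2.78 and 2.86 and the short ones 2.59, 2.46, 2.83, 2.60 and 2.35. Long replicate 2 was among the short values, short replicate 3 was among the long ones, and short replicate 5 was again lowest. The difference of 0.19 ± 0.10 (SE) had limma adjusted p = 0.266. The other PAG16 probe set measured 2.83, 2.79, 3.10, 3.05 and 3.01 in long and 3.08, 2.84, 2.80, 2.81 and 2.81 in short conceptuses, a difference of 0.09 ± 0.08 (SE, limma adjusted p = 0.595). Over the 14 arrays the 2 probe sets of this gene correlated at r = 0.55, with rho = 0.49.

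PAG21 averaged 3.19 ± 0.16 (SD, n = 5) in long and 3.04 ± 0.18 (SD, n = 5) in short conceptuses. Its single values were 2.94, 3.36, 3.13, 3.31 and 3.22 against 3.12, 3.09, 3.28, 2.92 and 2.83, and long replicate 1 was lower than 3 of the short conceptuses. The difference was 0.15 ± 0.10 (SE, limma adjusted p = 0.45).

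PAG17 varied most among the members, over a range of 0.92 across the 14 arrays. It measured 3.63, 3.43, 4.10, 4.15 and 3.68 in long conceptuses and 3.69, 3.66, 3.87, 3.80 and 3.37 in short ones. The pair of long replicates 3 and 4 stood above all short values and the remaining long ones lay among them. The difference of 0.12 ± 0.14 (SE) had limma adjusted p = 0.694 and a 95% interval from -0.20 to 0.44, the widest of the members. In linear terms that interval reached from 0.873 to 1.35 fold.

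The brightest members differed little. PAG5 measured 5.32 in long replicate 1 and 5.37 in each of the other long conceptuses, against 5.32, 5.30, 5.54, 5.13 and 5.33 in short ones. The long values fell inside the range of the short ones, and the difference was 0.04 ± 0.07 (SE, limma adjusted p = 0.828). PAG6 measured 5.17, 4.87, 5.11, 5.23 and 5.07 in long and 5.07, 4.95, 5.25, 4.95 and 4.94 in short conceptuses. The lowest PAG6 value of the 14 was in a long conceptus and the highest in a short one, with a difference of 0.06 ± 0.09 (SE, limma adjusted p = 0.765).

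PAG4, PAG15 and PAG19 stood at differences of 0.04, 0.03 and -0.02, with limma adjusted p between 0.84 and 0.902. PAG19 was thus the member with a negative difference. LOC281964, the gene with the synonym PAG1, averaged 2.66 ± 0.04 (SD, n = 5) in long and 2.69 ± 0.07 (SD, n = 5) in short conceptuses, a difference of -0.03 ± 0.06 (SE, limma adjusted p = 0.797).

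The precision at these probe sets was like that of the array. The residual SD of the members in the fit of length had a median of 0.13, compared with 0.15 over all probe sets and 0.15 over the adult tissue genes. The 95% intervals of the members' differences reached 0.18 to each side at the median, and no interval went beyond 1.35 fold up or 0.873 fold down. These bounds hold for the RMA scale, on which a change in scarce RNA is compressed by background signal. Some probe sets at the levels of PAG5 and PAG6 did pass in the same fit. SOX18 at a mean of 4.87 and PECAM1 at 5.39, a transcription factor and an adhesion molecule of endothelium, are examples picked because they passed. Their differences, -0.84 and 0.99, lie outside the intervals of PAG5 and PAG6. The share that passed at this level is not given here, and like brightness does not show like sensitivity to a change in RNA. The lack of a call does not show that the RNA of the members was equal in both lengths.

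**Figure D4:**
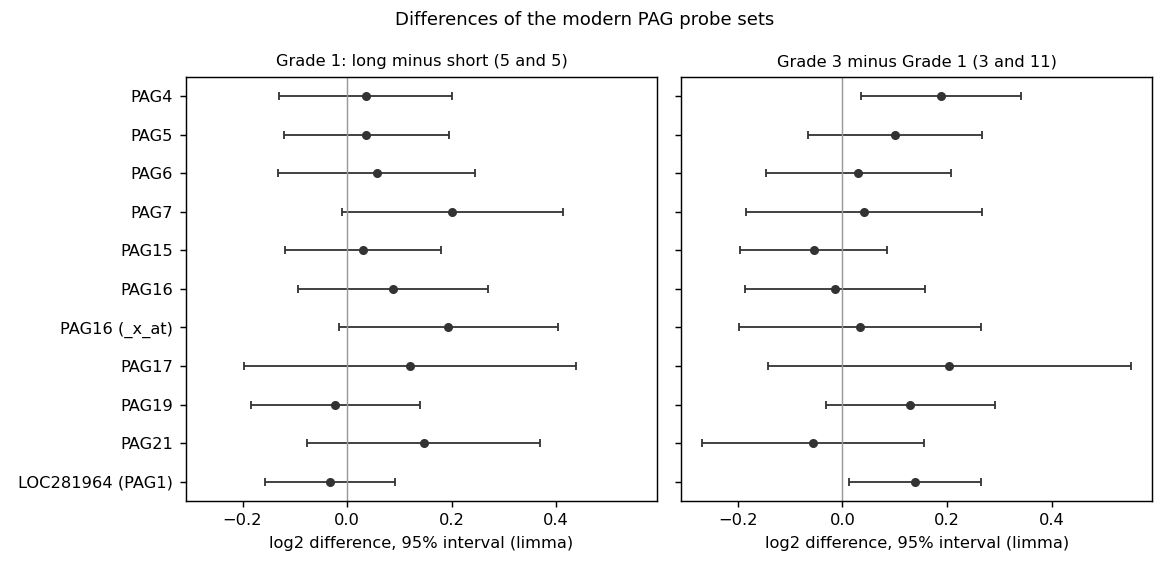
Log2 differences (points) with 95% intervals from limma (bars) of the 10 member probe sets and LOC281964, for long minus short on the left and Grade 3 minus Grade 1 on the right. All intervals for length include 0, and for grade those of PAG4 and LOC281964 lie above 0 without passing after adjustment.

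Sample titles fall into groups by a shared number whose meaning the labels do not give, and 2 such numbers hold both lengths. Within the one with 2 long and 1 short conceptus, 7 of 10 members were higher in long, with a median difference of 0.06. Within the one with 1 long and 2 short, 7 of 10 were higher in long, with a median of 0.04. PAG7 stood at 0.19 in the first and at -0.01 in the second, and the _x_at probe set of PAG16 at 0.19 and 0.15. PAG17 stood at -0.13 and 0.27. The sign of the PAG7 and PAG17 differences was thus not shared by both sets, each of 3 conceptuses. In a fit with the title number as a fixed block, PAG7 differed by 0.092 ± 0.106 (SE, limma adjusted p = 0.733) and PAG17 by 0.068 ± 0.153 (SE, adjusted p = 0.875). All 10 conceptuses entered that fit, but only the 2 numbers holding both lengths inform its length difference. It thus restates the differences just given and adds no evidence from the other conceptuses.

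The other branches of the family were measured in the same fit. Of the other modern PAGs, PAG3, PAG9, PAG14, PAG18 and PAG20 were on the array, with mean values up to 3.92 (PAG20). All 5 were near the floor and 0 passed for length. Of 5 ancient PAGs measured, 4 were above the floor and 1 passed. That gene, PAG12, averaged 10.18 ± 0.83 (SD, n = 5) in long and 7.03 ± 1.26 (SD, n = 5) in short conceptuses, a log2 difference of 3.15 ± 0.56 (SE, limma adjusted p = 0.0139). PAG2, a bright member of the ancient branch, stood at 14.07 ± 0.11 (SD, n = 5) in long ones and 13.46 ± 0.55 (SD, n = 5) in short ones, with fully separate values and limma adjusted p = 0.114. Whether the modern and the ancient branch differed in their response to length was not tested.

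Genes listed as products or regulators of binucleate cells were spread over the array, with the hormones among them low. Placental lactogen (CSH2) and the prolactin-related proteins PRP1, PRP3, PRP4, PRP6 and PRP9 are hormones secreted by these cells. All 6 genes had means below the median of the adult tissue genes, from 2.74 for PRP1 to 3.47 for CSH2, and 0 passed for length. Their differences ran from -0.10 ± 0.09 (SE) for PRP3 to 0.18 ± 0.06 for CSH2 (limma adjusted p = 0.551 and 0.102), and 3 of the 6 were below 0. GCM1, a transcription factor of syncytial trophoblast, averaged 4.26. In the wider list of binucleate products and regulators, 15 of 21 measured genes were near the floor, compared with 3532 of all 9155 named genes, and 2 rose in long conceptuses. The 6 genes above the floor were PTGS2 at 13.31, HSD17B1 at 12.42, FURIN at 9.60, HSD3B1 at 8.61, SLC2A3 at 6.97 and HAND1 at 6.60. Whether their signal came from binucleate cells was not tested. The 2 genes of the list that rose were the aromatase CYP19A1, by 1.86 ± 0.37 (SE), and the glucose transporter SLC2A3, by 0.95 ± 0.21. CYP19A1 counts as near the floor by its mean of 6.27 over all arrays, though it averaged 7.34 in long and 5.48 in short conceptuses. The mean of that list was 5.85 to 6.11 in long, 5.54 to 5.84 in short and 5.77 to 5.88 in Grade 3 conceptuses. The separation of long from short was not particular to it. The mean of the list of mononucleate trophoblast products was 11.53 to 11.76 in long, 10.92 to 11.48 in short and 11.36 to 11.49 in Grade 3 conceptuses. The part of either list in the results for the modern PAGs was not tested.

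Transcription factors of trophoblast, among them ETS2 and DLX3, both regulators of the interferon tau gene, were also measured. TFAP2A rose by 0.38 ± 0.10 (SE) as 1 of 8, while ETS2, with a mean of 9.92, stood at -0.52 ± 0.27 (limma adjusted p = 0.291) and DLX3, with a mean of 4.87, at -0.14 ± 0.12 (0.52). Of 5 other aspartic proteinases 0 passed. Among these PGA5, a pepsinogen, averaged 4.90, and CTSD, a lysosomal protease, averaged 8.85. In the list of mononucleate trophoblast products TKDP2 rose as 1 of 7. Over all 9155 named genes 299 rose and 571 fell.

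Markers of other cell types were near the floor by the same rule, except for 1 endometrial gene. Of 8 erythroid and 8 endometrial genes 0 passed for length. Of 12 blood and immune genes CD8A fell, and of 9 endothelial genes PECAM1 rose and SOX18 fell. CD8A counts as near the floor by its mean of 6.46 over all arrays, though it averaged 6.76 in short conceptuses. The mean of the endometrial list was 3.91 to 4.11 in long and 3.89 to 4.28 in short conceptuses. The part of these cells in the results was not tested. Among the adult tissue genes used for the floor 3 of 76 fell and 0 rose. These were PYGM, KRT10 and TNNC2, with log2 differences of -0.68, -0.66 and -0.35 and limma adjusted p of 0.00902, 0.0351 and 0.0395.

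The comparison of grades set Grade 3 embryos, of lower morphological quality, against Grade 1 embryos. No member passed in limma between 3 Grade 3 and 11 Grade 1 conceptuses, and neither did any other probe set: 0 of 24016 (0%) were called, while 1215 (5.06%) had an unadjusted p under 0.05. Of the 10 members 1 had such a p. The members' differences, Grade 3 minus Grade 1, ran from -0.06 to 0.20 with a median of 0.04, against 0.00239 over all probe sets. Of the 10 differences 7 were above 0, compared with 50.9% over all probe sets. Grade 3 and Grade 1 values were fully separate in 0 of 10 members and in 0.554% of all probe sets.

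PAG4 was the member with that p. It measured 3.45, 3.53 and 3.41 in Grade 3, while the Grade 1 conceptuses ran from 3.11 to 3.48 with a median of 3.26. All 3 Grade 3 values were above the Grade 1 median, and Grade 1 long replicate 2 was above 2 of them. The difference was 0.19 ± 0.07 (SE), or 1.14 fold, with an unadjusted p = 0.0184 and an adjusted p = 0.927 in limma. LOC281964 measured 2.76, 2.74 and 2.93 in Grade 3 against 2.59 to 2.80 in Grade 1 (median 2.68), a difference of 0.14 ± 0.06 (SE, limma adjusted p = 0.966).

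PAG17 had the highest difference, 0.20 ± 0.16 (SE, limma adjusted p = 0.999). It measured 3.71, 3.73 and 4.29 in Grade 3 and 3.37 to 4.15 in Grade 1, with a median of 3.68. The value of Grade 3 replicate 3 was the highest of all 14 conceptuses, and both others lay near the Grade 1 median. PAG19 measured 3.11, 3.16 and 3.40 in Grade 3 and 2.90 to 3.24 in Grade 1 (median 3.09), again with replicate 3 highest. Its difference was 0.13 ± 0.08 (SE, limma adjusted p = 0.999). PAG5 stood at 5.39, 5.41 and 5.58 in Grade 3 and at 5.13 to 5.56 in Grade 1, a difference of 0.10 ± 0.08 (SE). The other 6 members differed by -0.06 to 0.04, and the widest interval over all members, that of PAG17, reached 1.47 fold.

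Set against each length group in turn, Grade 3 gave no call. These fits share the Grade 3 samples, so their values are given side by side. Against long Grade 1 conceptuses 4 of 10 members were higher in Grade 3, compared with 55.4% of all probe sets. The members' differences ran from -0.13 (PAG21) to 0.18 (PAG4). Against short ones 9 of 10 were higher, compared with 48.1% of all probe sets, and the differences ran from -0.05 (PAG15) to 0.23 (PAG17). PAG4 differed by 0.18 ± 0.08 from long (limma adjusted p = 0.546) and by 0.21 ± 0.08 from short conceptuses (SE, adjusted p = 0.39). In both fits 0 of 24016 probe sets were called (0%), with 2176 and 2551 at an unadjusted p under 0.05. PAG5 did not overlap between Grade 3 and long conceptuses, as for 7.14% of all probe sets, and PAG4 did not overlap between Grade 3 and short ones, as for 6.08%.

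Sex did not separate the members. With grade and length in the model, 0 of 10 passed between 6 males and 8 females, compared with 110 probe sets in all (0.458%), and 0 of 10 had values that did not overlap, compared with 0.491%. Differences, male minus female, ran from -0.10 for PAG15 to 0.03 for PAG7 and for the PAG16 probe set without the suffix. The smallest adjusted p was 0.489, for PAG15 (limma).

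The members varied together only in part. Over the 14 arrays the 45 pairs of member probe sets had Pearson correlations from -0.53 to 0.75 with a median of 0.22, and 33 of the 45 were above 0. The 8256 pairs among the adult tissue probe sets had a median of 0.11, with 63.3% above 0. The highest pair was the _x_at probe set of PAG16 with PAG17 (r = 0.75, rho = 0.71), followed by PAG7 with PAG21 (0.69, rho 0.51). The lowest was PAG4 with the other PAG16 probe set. All these pairs share their arrays and their closeness to background, so they are given as a description. With PAG12, the member of the ancient branch that passed for length, PAG7 correlated at 0.59, the _x_at probe set of PAG16 at 0.50 and PAG21 at 0.47, while PAG19 stood at -0.30.

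Several extremes of the members fell on the same conceptuses. Grade 1 short replicate 5 had the lowest value in 4 of 10 members (PAG7, the _x_at probe set of PAG16, PAG17 and PAG21), compared with 10.8% of all probe sets. Grade 3 replicate 3 had the highest in 3 of 10 (PAG5, PAG17 and PAG19), compared with 8.26%. Grade 1 long replicate 3 also had 3 highest values, in PAG15 and both PAG16 probe sets, compared with 4.68%. The median over the members was 2.98 in short replicate 5 and 3.38 in Grade 3 replicate 3, the lowest and the highest of the 14. The median of the adult tissue genes was 4.18 and 4.21 on these arrays. Among the PAGs outside the members, short replicate 5 had the lowest value of PAG2, PAG9, PAG11 and PAG12. It had the highest value of PAG10 (5.47) and of PAG3 (3.60). With 1 conceptus left out at a time, 0 of 10 members passed in any fit. None had passed with all conceptuses, so this count does not show the part of single arrays. The length differences of PAG4, PAG5, PAG15 and PAG19 did turn sign in some of these fits.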

How the data were processed

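RNA of 14 Day 15 bovine conceptuses was hybridised to 1 Affymetrix bovine array each, after biotin labelling from 250 ng of RNA (per the labels). The deposited values are on the log2 scale. The submitters' processing notes name RMA and the software Expression Console; neither its version nor which arrays were normalised jointly is stated there. RMA removes background, equalises the arrays' distributions and summarises probes, so differences at low brightness shrink. The table held 24128 probe sets with 0 missing values; 112 controls were left out. Array medians lay between 5.62 and 5.716 and array pairs correlated at 0.9838 to 0.9967. Arrays carry no read depth, and their number limits the precision.

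Symbols came from the platform annotation: 13292 probe sets had 1 symbol, 86 several and 10638 none. A gene in a list was represented by its brightest probe set. Gene order came from RefSeq (ARS-UCD2.0), without coordinates, and no sequence was used here. Groups came from the length and grade labels. Differences were tested across all 24016 probe sets with limma 3.58.1 (lmFit, eBayes) in R 4.3.3, two-sided, with Benjamini-Hochberg adjustment and a threshold of 0.05; the fit was tested on simulated data. Members and gene lists were chosen with earlier results of these data known. All member probe sets are named, and of the other lists genes that passed and the brightest PAGs. Correlated genes were to be named for members above the floor, of which there were none. CSH2, the prolactin-related genes, the binucleate genes above the floor, GCM1, ETS2, DLX3, PGA5, CTSD, GH1, PRL and the Y-linked genes were chosen after their values were seen. Conceptuses were left out in turn, and other scalings, filters, covariates, blocks and group labels were tried.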

Additional observations from a re-analysis of the deposited data

Results flagged for a closer look

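The search covered 22 sets of 5 values, the long and the short conceptuses at each of the 10 member probe sets and LOC281964. In each set the gap from the extreme value to its neighbour was divided by the range of the 5 values. This ratio was above the limit of 0.71 in 3 sets. Chance alone gives about 1 in 20 such sets. PAG5 was 5.32 in Grade 1 long replicate 1, while the other long conceptuses lay between 5.366 and 5.371. The gap is 0.04 on the log2 scale and stands out because those 4 values almost coincide. PAG16, in the probe set without the _x_at suffix, was 3.08 in Grade 1 short replicate 1, the conceptus with conflicting length labels, while the other short ones lay between 2.80 and 2.84. The long conceptuses had 2.79 to 3.10 at this probe set. LOC281964 was 2.59 in Grade 1 long replicate 1, against 2.67 to 2.70 in the other long conceptuses.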

How the results depend on the processing

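The calls for the members did not depend on the processing: 0 of 10 passed for length, grade or sex under any alternative run, with a smallest adjusted p of 0.107 for length and 0.716 for grade. With probe sets up to the 25th percentile left out, the members among them had no value. The count of all called probe sets for length moved from 1577 to 2403 with sex as a covariate, to 112 with the title number as a fixed block and to 492 with the conceptus of conflicting labels counted as long. With 1 conceptus left out it lay between 460 (without short replicate 4) and 1697 (without short replicate 1), and was also low without long replicates 1, 2, 4 and 5 (655, 532, 914 and 510) and short replicate 5 (704). For grade it lay between 0 and 2, against long conceptuses between 0 and 1 and against short ones between 0 and 4; leave-one-out fits for the last 2 were chosen after the data were seen. As a fixed block, the title number leaves only the 2 numbers with both lengths to inform the length difference. The cause of the shifts in these counts was not tested. Members near the floor numbered 10 by the rule used, and 8 with the 75th percentile of the adult tissue genes or the 25th percentile of the array.

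Several small differences turned sign. For length PAG4 was -0.029 with the conflicting conceptus counted as long, and with 1 left out PAG4 lay between -0.014 and 0.072, PAG5 between -0.011 and 0.090, PAG15 between -0.011 and 0.064 and PAG19 between -0.061 and 0.022. For grade PAG6 lay between -0.011 and 0.076, PAG7 between -0.031 and 0.085 and PAG16 between -0.0456 and 0.0060, or -0.041 and 0.071 in its _x_at probe set. Against long conceptuses PAG6 lay between -0.063 and 0.038 and PAG17 between -0.077 and 0.214, the lowest without Grade 3 replicate 3. Against short ones PAG16 lay between -0.010 and 0.074 and PAG21 between -0.038 and 0.075. No paired analysis was possible because replicate numbers were given in accession order and pair no samples; the title number, of which 2 hold both lengths, was used as a block instead (112 calls as a fixed block, 1653 as a random one, 0 members in either). Signal close to background limits what any setting can show here.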
